A study of Oryza sativa with 6 samples.

Results

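Kinesins are motor proteins that turn the energy of ATP into movement along microtubules. In plant cells they build the spindle that separates chromosomes, guide the phragmoplast that lays down the new cell wall at the end of division, and position organelles and cell wall material between divisions. Plant kinesins are numbered by subfamily, and a letter tells the members of a subfamily apart, so that KIN10C is a member of kinesin-10. A shoot tip holds dividing cells of the meristem and of young leaves, in which many kinesin genes are read mainly around mitosis. Measurements of kinesin genes in shoot tips of rice seedlings were compared here between a mutant of *OsRDR1*, which encodes an RNA-dependent RNA polymerase, and its wild type.

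The members were taken by name, as genes that the array annotation or the RefSeq table of rice genes calls KIN with a number and an optional letter. The rule found 37 genes, of which 34 have a probe set among the 17905 genes measured. One of them, KIN17, shares its name with a nuclear zinc-finger protein of animals and plants and has no kinesin subfamily, so it was set apart by its name. The other 33 measured genes belong to 9 subfamilies, and KIN12F, KIN14D and KIN14P were not analysed here because no probe set could be matched to them by these tables. Kinesin genes without such a name are not among the members.

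The mutant *Osrdr1* was homozygous for a *Tos17* retrotransposon in the second exon of *OsRDR1*, and the wild type (WT) was the sibling without the insertion, bred from the same heterozygous plant of the variety Hitomebore. The mutant is thus 1 insertion line. Seeds were kept wet in the dark (2 days, 28 °C), and the seedlings then grew under greenhouse light (16 h light and 8 h dark per day, 26 °C) for about 48 h before shoot tips were cut for RNA. Each of 3 biological replicates of each genotype was read on 1 Affymetrix Rice Genome Array, with no further treatment in either genotype, and whether a replicate held 1 seedling or several is not stated. No probe set could be assigned to *OsRDR1* by name, and the genotype labels were therefore not checked against its signal.

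Values are the authors' log2 signals after RMA, a procedure that corrects background, equalizes the arrays and summarizes the probes of each probe set. Array medians were 4.87 to 4.97 on a scale that reached from 2.97 to 14.71. A difference of 1 is a doubling of signal. A gene was called different at an adjusted p under 0.05 from limma, fitted to all 57258 probe sets. Probe sets bind unequally, so levels were compared between arrays and not between genes. In shoot tips taken whole, fewer dividing cells and less kinesin RNA in each cell cannot be told apart. On the whole table, 290 probe sets (0.506%) were called lower and 901 (1.57%) higher, against 180 and 1041 with arrays centred on their medians and 626 and 963 after another quantile normalization. All 33 kinesin genes had signals above the array medians on every array.

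Kinesin genes lay mostly below WT in *Osrdr1*, by small amounts, and none was called higher. KIN10C and KIN14Q were called lower at 64.7% and 71.4% of the WT signal, and 31 genes did not pass the test. These 2 genes are 6.06% of the 33, where 1.13% of all 17905 genes were called lower, 3.44% higher and 4.57% in either direction. The log2 fold change was negative for 25 kinesin genes and positive for 8, with a median of -0.14, a lowest value of -0.70 and a highest value of 0.22. Over all genes the median was 0.00, and 49.0% of them had a negative value.

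The 2 genotypes did not overlap in 16 kinesin genes. In 14 of them, 42.4% of the family, the 3 *Osrdr1* values lay below the 3 WT values, as they did in 15.2% of all genes. In 2 of them, KIN7D and KIN14L, they lay above, as they did in 19.4% of all genes. An unadjusted p under 0.05 was reached by 12 kinesin genes on the lower side and 0 on the higher side, and by 11.3% and 16.4% of all genes. A log2 fold change of -0.3 or less was found for 11 kinesin genes (33.3%) and for 8.35% of all genes, while one of 0.3 or more was found for 0 kinesin genes and for 13.6% of all genes.

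**Figure D1:**
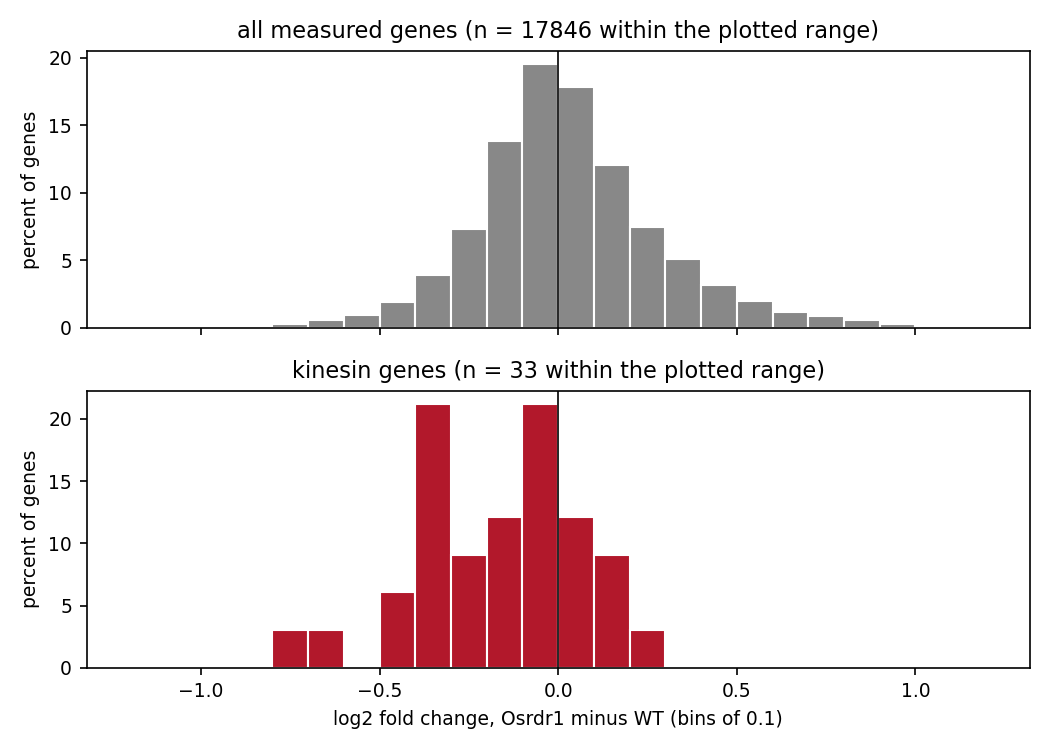
Share of genes (y axis, percent) by log2 fold change of *Osrdr1* minus WT (x axis, bins of 0.1) for all measured genes (upper panel, with the few genes beyond the x axis left out) and for the 33 kinesin genes (lower panel). The kinesin genes run from -0.70 to 0.22 with a median of -0.14, while all genes centre on 0.00 and reach farther on both sides.

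KIN10C belongs to kinesin-10, whose animal members push chromosome arms towards the middle of the spindle. Its log2 signal was 8.95, 8.84 and 9.04 in the 3 WT replicates and 8.39, 8.16 and 8.39 in the *Osrdr1* replicates. Every mutant array lay below every WT array, and the gap was wider than the spread within either genotype. The means were 8.94 ± 0.10 in WT and 8.32 ± 0.13 in *Osrdr1* (SD, n = 3), which is a log2 fold change of -0.63 with a standard error of 0.10 (limma, adjusted p = 0.0281). Leaving out WT replicate 3 kept the call (adjusted p = 0.0484 from limma), while leaving out any other array ended it, at adjusted p from 0.0732 to 0.123, with a fold change between -0.68 and -0.55 throughout. The fit without WT replicate 3 called 419 of all probe sets lower, and those without any other single array called 0 to 22.

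The other members of kinesin-10 lay lower in the mutant as well but did not pass the test. KIN10B read 9.12, 8.81 and 8.80 in WT and 8.57, 8.42 and 8.57 in *Osrdr1*, a log2 fold change of -0.39 (95% interval -0.65 to -0.14, adjusted p = 0.137 from limma). KIN10A, known in rice as STD1, is a kinesin of the phragmoplast that dividing cells need for normal stem growth. It read 9.77, 9.63 and 9.75 in WT and 9.56, 9.26 and 9.53 in *Osrdr1*, a log2 fold change of -0.26 (95% interval -0.50 to -0.03, adjusted p = 0.291 from limma). In all 3 genes of this subfamily the mutant values lay below the WT values, as they did in 15.2% of all genes. *Osrdr1* replicate 2 was the lowest array in each, and it was the lowest mutant array in 55.4% of all genes.

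Kinesin-12 includes the phragmoplast kinesins of *Arabidopsis*, which help to place and expand the new wall. KIN12C read 10.25, 10.13 and 10.17 in WT and 9.89, 9.70 and 9.80 in *Osrdr1*, and its log2 fold change was -0.38 (95% interval -0.58 to -0.19, adjusted p = 0.0686 from limma). KIN12E read 8.11, 7.90 and 7.77 in WT and 7.48, 7.25 and 7.55 in *Osrdr1*, a log2 fold change of -0.50 (95% interval -0.78 to -0.22, adjusted p = 0.0933 from limma). The 3 mutant values lay under the 3 WT values in both genes, as they did in 15.2% of all genes. The WT arrays of KIN12E were spread more widely than those of KIN12C (SD 0.18 against 0.06, n = 3).

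Kinesin-5 motors push the poles of the spindle apart. KIN5C read 9.79, 9.68 and 9.61 in WT and 9.43, 9.24 and 9.37 in *Osrdr1*, with a log2 fold change of -0.34 (95% interval -0.55 to -0.14, adjusted p = 0.106 from limma). KIN5A had -0.25 (adjusted p = 0.278 from limma), and its genotypes did not overlap either. The subfamily medians were -0.30 for kinesin-5, -0.39 for kinesin-10 and -0.44 for kinesin-12. These are the subfamilies in which every measured member had the 3 mutant values below the 3 WT values, as 15.2% of all genes had. They are set side by side here after their values were seen, so no count over them is given.

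**Figure D2:**
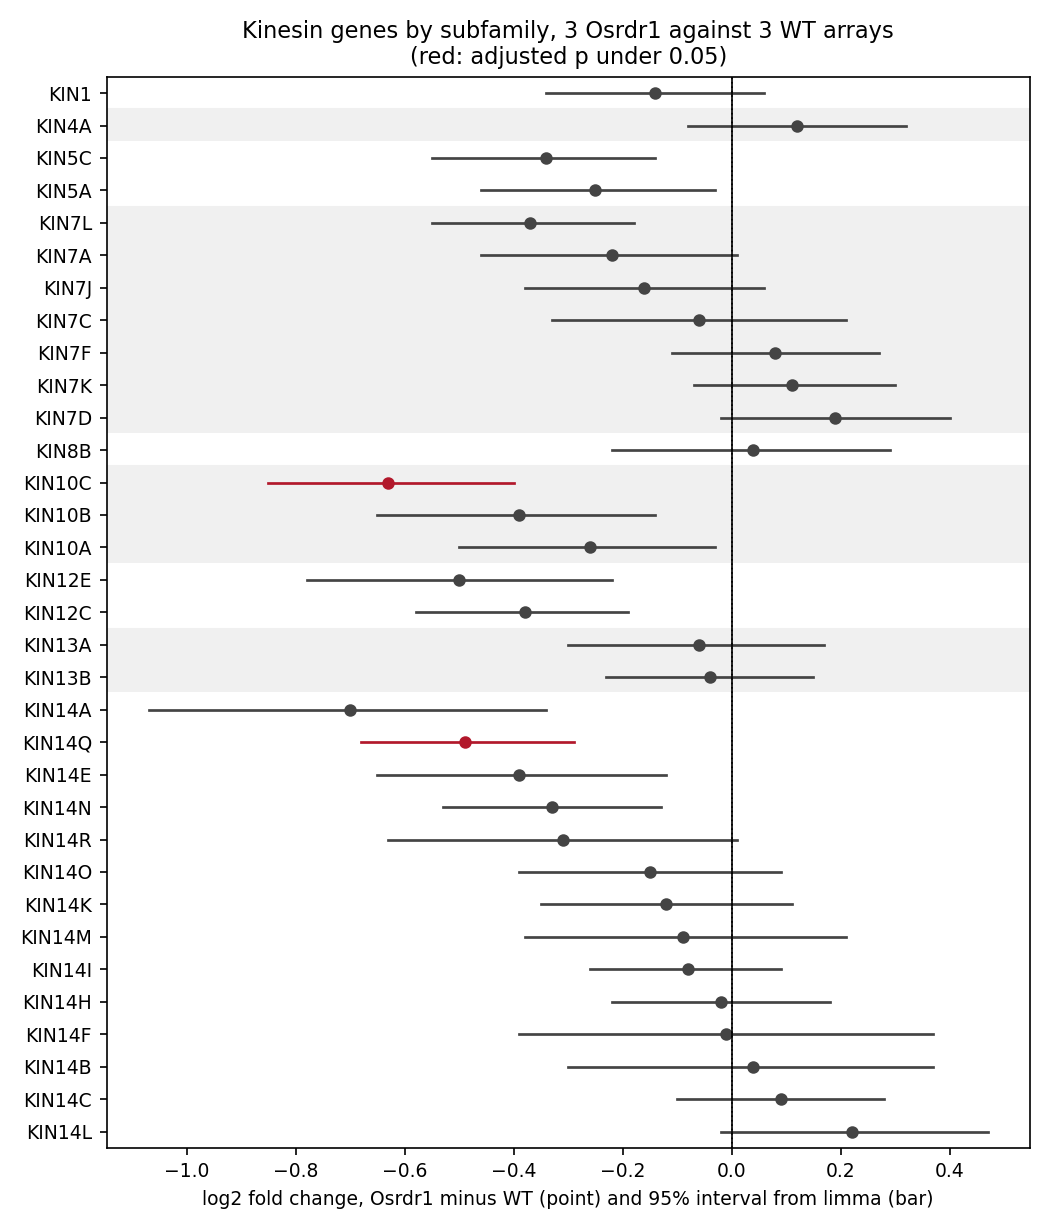
Log2 fold change of *Osrdr1* minus WT (x axis; points, with bars for the 95% interval from limma, n = 3 arrays for each genotype) for the 33 kinesin genes, grouped by subfamily from top to bottom. KIN10C and KIN14Q, in red, were called lower, and KIN14 runs from -0.70 to 0.22. All members of KIN5, KIN10 and KIN12, subfamilies picked out after their values were seen, lie left of 0 with their intervals.

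Kinesin-14 differs from other subfamilies in that its motors move towards the minus end of microtubules. With 14 measured genes it is the largest subfamily here, and its members were spread widely, from -0.70 for KIN14A to 0.22 for KIN14L with a median of -0.10. One was called lower, where 1.13% of all genes were, and 13 were not called. In 6 members all mutant values lay below the WT values, as in 15.2% of all genes. In 1 they lay above, as in 19.4%, and 7 had overlapping genotypes, as had 11707 of all 17905 genes.

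KIN14Q, also named KCH1, carries a calponin-homology domain and binds actin filaments as well as microtubules. It read 7.53, 7.36 and 7.54 in WT and 7.03, 6.92 and 7.03 in *Osrdr1*. The means were 7.48 ± 0.10 in WT and 6.99 ± 0.07 in *Osrdr1* (SD, n = 3), so that every mutant array stood clear of every WT array. Its log2 fold change came to -0.49 with a standard error of 0.08 (limma, adjusted p = 0.0383). The call was lost without any 1 of the 6 arrays (adjusted p from 0.0597 to 0.154) and with arrays centred on their medians (adjusted p = 0.0603 from limma), while the fold change stayed between -0.54 and -0.45. Over all probe sets, 419 were called lower without WT replicate 3 and 0 to 22 without any other single array.

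The lowest fold change of the family was that of KIN14A, which was not called. It read 8.54, 8.44 and 8.06 in WT and 7.75, 7.40 and 7.78 in *Osrdr1*, and its log2 fold change was -0.70 (standard error 0.15, 95% interval -1.07 to -0.34, adjusted p = 0.0715 from limma). WT replicate 3 was the WT array nearest to the mutant, and without it the fold change was -0.85 and the gene was called (adjusted p = 0.0405 from limma), against adjusted p from 0.191 to 0.210 without any other single array. KIN14E read 9.29, 9.13 and 9.10 in WT and 8.88, 8.57 and 8.91 in *Osrdr1* (log2 fold change -0.39, adjusted p = 0.156 from limma). KIN14N read 10.09, 10.06 and 9.94 in WT and 9.77, 9.60 and 9.73 in *Osrdr1* (log2 fold change -0.33, adjusted p = 0.107 from limma). Neither gene overlapped between genotypes, nor did KIN14R (-0.31) and KIN14O (-0.15), whose 95% intervals reached past 0.

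The rest of kinesin-14 had fold changes near 0. KIN14I, or KCBP, is a calmodulin-binding kinesin that shapes leaf hairs in *Arabidopsis*, and it had a log2 fold change of -0.08 (95% interval -0.26 to 0.09). KIN14H had -0.02, KIN14F -0.01, KIN14B 0.04, KIN14C 0.09, KIN14M -0.09 and KIN14K -0.12, all with overlapping genotypes. KIN14L had the highest fold change of all 33 genes, reading 9.13, 9.09 and 8.79 in WT and 9.25, 9.18 and 9.26 in *Osrdr1* (0.22, 95% interval -0.02 to 0.47, adjusted p = 0.409 from limma). The genotypes did not overlap, but WT replicate 3 was the lowest array by a clear margin. Without it the fold change of KIN14L was 0.12, below those of KIN7D (0.22), KIN4A (0.15) and KIN7K (0.13) in the same setting.

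**Figure D3:**
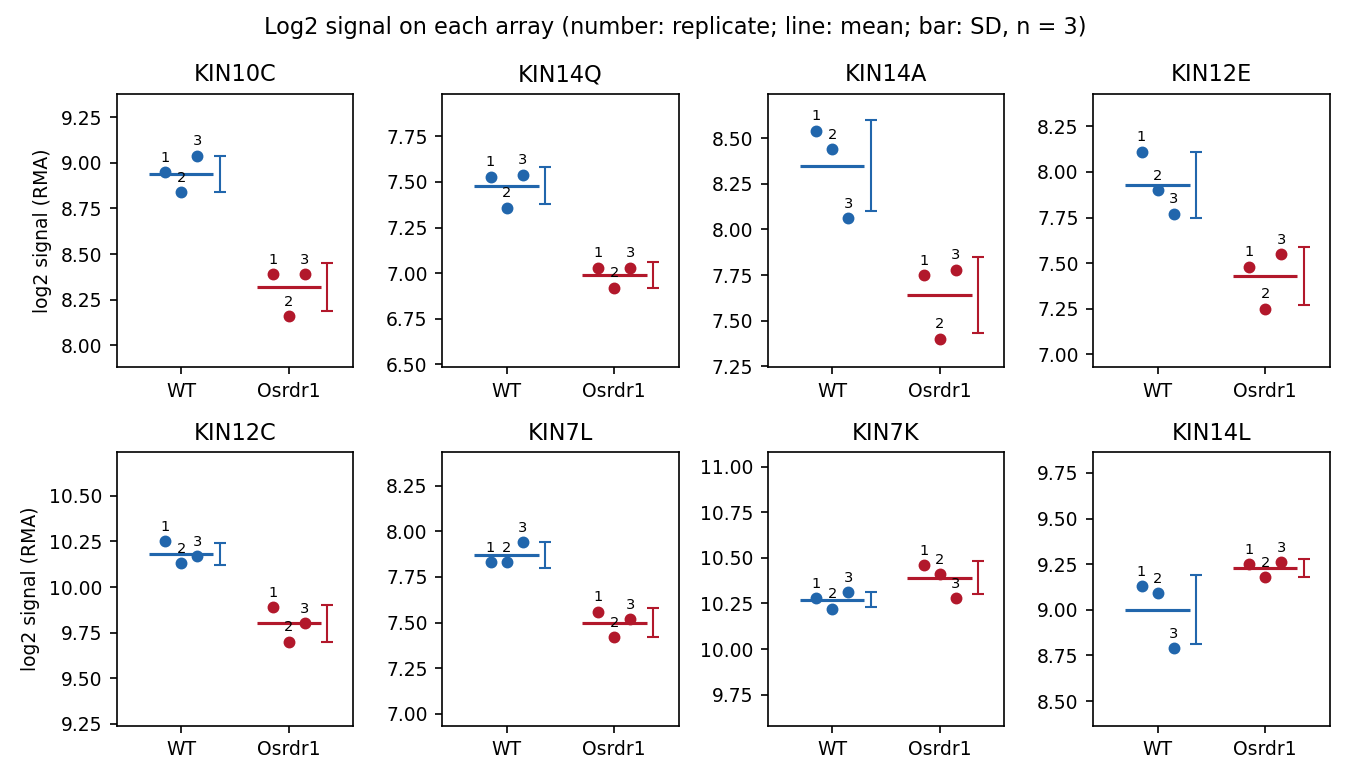
Log2 signal (y axis, with the same span in each panel) on the 3 WT arrays (blue) and the 3 *Osrdr1* arrays (red) for 8 kinesin genes, with the replicate number at each point, the mean as a line and the SD as a bar (n = 3). The genotypes are apart in KIN10C, KIN14Q, KIN14A, KIN12E, KIN12C, KIN7L and KIN14L, with KIN14L higher in *Osrdr1*, and they overlap in KIN7K.

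Kinesin-7 includes the relatives of the tobacco NACK motors, which bring a kinase cascade to the phragmoplast, and of the animal motor CENP-E. Its 7 measured genes lay on both sides of 0, with a median of -0.06, and limma called none of them. An unadjusted p under 0.05 was reached by 1 lower and 0 higher genes, with 11.3% of all genes on the lower side. The median was 0.03 without *Osrdr1* replicate 2 and 0.02 without WT replicate 1. KIN7L was the lowest, at 7.83, 7.83 and 7.94 in WT and 7.56, 7.42 and 7.52 in *Osrdr1*, a log2 fold change of -0.37 (95% interval -0.55 to -0.18, adjusted p = 0.0686 from limma). KIN7A, the rice gene named NACK, had -0.22 (95% interval -0.46 to 0.01) and the overlapping values 5.49, 5.30 and 5.46 in WT and 5.32, 5.03 and 5.24 in *Osrdr1*, close to the array medians.

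The other kinesin-7 genes had smaller differences. KIN7K read 10.28, 10.22 and 10.31 in WT and 10.46, 10.41 and 10.28 in *Osrdr1*, a log2 fold change of 0.11 (95% interval -0.07 to 0.30). KIN7D read 9.42, 9.21 and 9.39 in WT and 9.57, 9.44 and 9.59 in *Osrdr1*, a log2 fold change of 0.19 (95% interval -0.02 to 0.40, adjusted p = 0.400 from limma). The mutant values of KIN7D lay just above those of WT, while KIN7K overlapped. KIN7F had 0.08, KIN7C -0.06 and KIN7J -0.16, also with overlapping genotypes.

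The members of kinesin-4 and kinesin-13, KIN4A, KIN13A and KIN13B, did not pass the test, and their genotypes overlapped. KIN4A, listed also as GDD1, orders cellulose microfibrils in rice stems and read 9.95, 9.84 and 10.00 in WT and 10.13, 9.95 and 10.05 in *Osrdr1* (0.12, 95% interval -0.08 to 0.32). KIN13A, listed as SRS3, sets grain length in rice and had a log2 fold change of -0.06 (95% interval -0.30 to 0.17), with 0.01 on its second probe set. KIN13B read 10.65, 10.54 and 10.46 in WT and 10.56, 10.46 and 10.50 in *Osrdr1* (-0.04, 95% interval -0.23 to 0.15).

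The single members of 2 more subfamilies overlapped too. KIN1, listed as PSS1, acts in the male meiosis of rice and read 7.18, 7.05 and 7.0 in WT and 7.01, 6.84 and 6.96 in *Osrdr1* (-0.14, 95% interval -0.34 to 0.06). KIN8B, of a subfamily that shortens microtubules from their plus ends in yeast, read 9.07, 8.84 and 9.16 in WT and 9.16, 8.92 and 9.10 in *Osrdr1* (0.04, 95% interval -0.22 to 0.29). The probe sets of KIN1, KIN8B, KIN13B and KIN14K carry the array maker's mark for probes that may bind several transcripts, so their values may include related genes. KIN17, which is not counted as a kinesin, had a log2 fold change of -0.10 (95% interval -0.42 to 0.22) with overlapping genotypes.

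Replicates of a genotype were close for most kinesin genes, and part of their spread was shared. The SD over 3 arrays ran from 0.02 to 0.25 in *Osrdr1* and from 0.02 to 0.27 in WT, with a median of 0.10 in each. *Osrdr1* replicate 2 was the lowest mutant array in 31 of the 33 genes, against 55.4% of all genes, and WT replicate 1 was the highest WT array in 21, against 51.8%. Set against the WT mean of each gene, the median kinesin gene stood at 0.08, -0.05 and -0.07 in WT replicates 1, 2 and 3 and at -0.07, -0.24 and -0.12 in those of *Osrdr1*. The same median over all genes was 0.05, 0.01 and -0.07 in WT replicates 1, 2 and 3 and 0.02, -0.03 and 0.03 in those of *Osrdr1*. The family median of *Osrdr1* replicate 1 was thus level with that of WT replicate 3. On WT replicate 3 the median of all genes was as low as that of the kinesins, and on *Osrdr1* replicate 1 it was not. *Osrdr1* replicate 2 lay farthest from WT. Without *Osrdr1* replicate 2, the family median was -0.09, 22 genes had a negative value and 0 were called, with 10 lower at an unadjusted p under 0.05. Of all probe sets, 21 were then called lower, against 290 with every array. The part of this array in the family's difference was otherwise not tested.

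Genes that work beside kinesins differed between lists in the same arrays. The lists were drawn up by gene name and hold only genes with such a name. Mitotic cyclins and their kinases, which drive entry into mitosis, had negative log2 fold changes in all 8 measured genes, with a median of -0.33. One of the 8, CYCB1-3, lay below the array medians on every array. Called lower were 2 of the 8, namely CDKB2-1, a kinase read around mitosis, and the B-type cyclin CYCB2-1. None was called higher, and 1.13% of all genes were called lower. Leaving out any array but WT replicate 3 reduced these calls to 0, where 0 to 22 of all probe sets were called lower. Centring the arrays on their medians left 1. CDKB2-1 read 10.59, 10.57 and 10.51 in WT and 10.05, 10.00 and 10.09 in *Osrdr1* (log2 fold change -0.51, adjusted p = 0.0229 from limma). CYCB2-1 read 9.68, 9.52 and 9.55 in WT and 9.10, 9.11 and 9.17 in *Osrdr1* (log2 fold change -0.46, adjusted p = 0.0368 from limma). The mutant arrays of these genes lay within 0.1 of each other, and replicate 2 did not stand apart in CYCB2-1.

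DNA replication genes, 14 in number, had a median of -0.24, with 11 negative and 3 positive values. Limma called none of them in either direction (7 lower and 0 higher at an unadjusted p under 0.05). Without adjustment, 11.3% of all genes passed this threshold on the lower side and 16.4% on the higher side. The members with the largest differences were ORC5, of the origin recognition complex, at -0.46 (adjusted p = 0.303 from limma) and PCNA, the clamp of DNA polymerase, at -0.42 (adjusted p = 0.113 from limma). The tubulins, from which microtubules are built, had a median of -0.03 over 11 genes, with 7 negative and 4 positive values and none called by limma (1 lower and 1 higher at an unadjusted p under 0.05). They ran from -0.19 for TUB2 to 0.19 for TUB4, and tubulin genes are alike enough that their probe sets may share transcripts. The 4 actins had a median of -0.08, and none was called by limma or reached an unadjusted p under 0.05 (0 of 4), with -0.15 for ACT2 and -0.09 for ACT3.

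Among 11 further microtubule and cytokinesis factors, 10 of them formins that build actin filaments, the median was -0.10. In this list 1 gene was called lower and none higher, where 1.13% of all genes were called lower and 3.44% higher. The called gene was the formin FH15, at 7.49, 7.49 and 7.65 in WT and 6.97, 6.84 and 7.12 in *Osrdr1* (log2 fold change -0.57, adjusted p = 0.0382 from limma). The genotypes did not overlap, but the list had 0 calls without any 1 of the 6 arrays. Over all probe sets, 419 were called lower without WT replicate 3 and 0 to 22 without any other single array. FH13 had the next largest difference, at 0.29 (adjusted p = 0.464 from limma), and MOR1, which speeds the growth of microtubules, had -0.13. The kinesin median therefore lay between that of the mitotic cyclins and kinases and that of the tubulins, a difference between lists that was not tested.

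**Figure D4:**
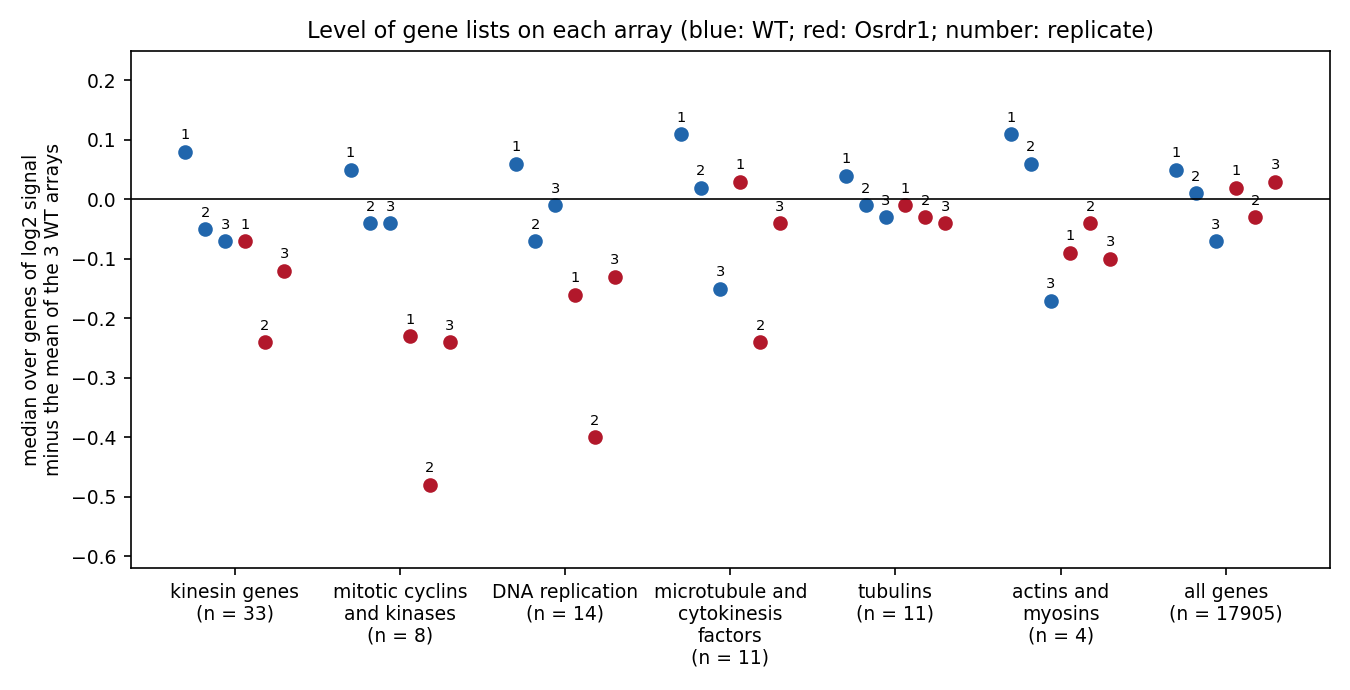
Median over the genes of each list of log2 signal minus the WT mean of the gene (y axis) on each array, with WT in blue, *Osrdr1* in red and the replicate number above each point. For mitotic cyclins and kinases and for DNA replication genes the 3 mutant arrays lie below the 3 WT arrays, *Osrdr1* replicate 2 is the lowest array for the kinesins and for these lists, and tubulins stay within 0.04 of the WT mean.

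Marker lists of other cell types and states were read on the same arrays, and in 4 of the 5 lists some members were called. The 6 markers of dividing cells all had mutant values below the WT values, as did 15.2% of all genes, with a median of -0.39. One of the 6, CYCB1-3, lay below the array medians on every array. Of these 6, 2 were called lower, against 1.13% of all genes, and none higher. They are also in the lists of mitotic and replication genes, and the 2 called are CDKB2-1 and CYCB2-1 again. The mean log2 signal of the list ran from 9.57 to 9.71 in WT and from 9.13 to 9.31 in *Osrdr1*. The 4 knotted genes that mark the shoot meristem had a median of -1.61. Only OSH71 was called lower, at -2.43, where 1.13% of all genes were. OSH1, at -2.48 with overlapping genotypes, and OSH6, at -0.78, were not called (adjusted p = 0.162 and 0.101 from limma). At an unadjusted p under 0.05, 3 of the 4 were lower and 0 higher, against 11.3% and 16.4% of all genes. The mean of the list ran from 5.87 to 6.94 in WT and from 4.45 to 5.52 in *Osrdr1*. Here *Osrdr1* replicate 3 was the lowest mutant array, and OSH43 lay below the array medians on every array. OSH71 and OSH1 lay below them on *Osrdr1* replicates 2 and 3.

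Of 5 markers of green leaf, 3 were called higher, against 3.44% of all genes, and none lower, with a median of 0.52. The mean of the list ran from 10.21 to 10.31 in WT and from 10.64 to 10.73 in *Osrdr1*, and RBCS1 lay below the array medians on every array. Of 5 endosperm genes, GLUA-2 was called higher at 0.70 and the other 4 lay under the array medians in both genotypes. None of the 4 low oxygen genes was called by limma (1 lower and 0 higher at an unadjusted p under 0.05). That threshold was met by 11.3% of all genes on the lower side and by 16.4% on the higher side. The low oxygen genes had a mean of 8.93 in WT replicate 2 and of 7.07 to 7.35 in the other WT arrays. The mean log2 signal of the kinesin genes was 8.70 on WT replicate 2 and 8.82 and 8.69 on the others. Whether the makeup of the shoot tips had a part in the kinesin values was not tested.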

How the data were processed

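The log2 values of 57381 probe sets on 6 arrays were deposited as the authors had computed them from the scans. The submitters' processing notes name RMA and Affymetrix Expression Console, whose version was not given in the sources used here. All value columns belong to these 6 samples, which were grouped by genotype from their titles. After 123 control probe sets were left out, a linear model with a term for genotype alone was fitted in R 4.3.3 with limma 3.58.1 (lmFit, then eBayes) to 57258 probe sets, with p-values adjusted by the Benjamini-Hochberg method. The fit had 4 residual and 3.32 prior degrees of freedom. Summaries and plots used Python 3.11.15, pandas 2.3.3, numpy 2.4.6 and matplotlib 3.10.9. The script was tested on simulated arrays of the same spread.

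The array's annotation and the RefSeq gene table of assembly ASM3414082v1, used for names alone, gave 1 gene for 22436 probe sets, several for 95 and none for 34727. Where a gene had several probe sets, the brightest on average was used. The text names the called kinesin genes, the 6 with the lowest and the 4 with the highest fold change, the member with the highest mean in each subfamily, and others within their subfamily. From related lists it names called genes and those with the largest differences. The members, lists and tests were chosen with earlier results of these data known. No test was made on a list. The number of arrays limits the precision. Alternatives changed the probe sets included, the scaling, the variance model, array weights, the replicate block, the arrays included and the members.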

Additional observations from a re-analysis of the deposited data

How the results depend on the processing

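The number of kinesin genes called lower depended on the processing, while none was called higher in any setting tried (0 to 0 without 1 array). It was 2 as reported, with 290 of all 57258 probe sets called lower (a count then given in parentheses). With arrays centred on their medians it was 1 (180). It was 5 with dim probe sets left out (566 of 28629) and 6 with a variance trend and robust estimation together (849). After another quantile normalization it was 7 (626), with array weights 8 (1344) and with 1 probe set per gene 8 (648 of 17905). It was 12 at an unadjusted p and 0 with the replicate block. With the block, 14 kinesin genes were lower at an unadjusted p under 0.05, and 6862 of all probe sets passed it in either direction. The 8 genes called with 1 probe set per gene were KIN5C, KIN7L, KIN10C, KIN12C, KIN12E, KIN14A, KIN14N and KIN14Q. Without 1 array the number of kinesin genes called lower was 0 to 2, and most of these fits called few probe sets of any kind. They called 0 lower and 0 higher without *Osrdr1* replicate 1 or 3, and 0 and 1 without WT replicate 1. The counts were 21 and 140 without *Osrdr1* replicate 2, 22 and 159 without WT replicate 2, and 419 and 801 without WT replicate 3. Leaving out replicate 2 of both genotypes, chosen after seeing the data, gave 0 kinesin calls (9 lower at an unadjusted p under 0.05). Over all probe sets it gave 0 calls, as did the block. Deviations of same-numbered arrays correlated at r = 0.138, -0.147 and -0.271 (replicates 1 to 3). A shared batch was not tested for.

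The family median stayed below 0 throughout, from -0.18 to -0.09 without 1 array. Without 1 array the subfamily medians ran from -0.33 to -0.24 for KIN5, -0.45 to -0.29 for KIN10, -0.48 to -0.37 for KIN12, -0.18 to -0.05 for KIN14, -0.12 to 0.02 for KIN13 and -0.11 to 0.03 for KIN7. That of KIN7 was 0.03 without *Osrdr1* replicate 2, 0.02 without WT replicate 1 and 0.00 without replicate 2 of both genotypes. KIN8B turned to -0.01 after another quantile normalization and without *Osrdr1* replicate 1, and to -0.05 without WT replicate 2 (-0.05 to 0.11 without 1 array). KIN13B turned to 0.01 without WT replicate 1 (-0.08 to 0.01 without 1 array). The cause of these changes was not tested.

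Calls among mitotic cyclins and kinases went from 2 to 1 with centred arrays and to 0 with the replicate block or without replicate 2 of both genotypes, and were 0 to 2 without 1 array. The median of that list was -0.24 with array weights, -0.28 without replicate 2 of both genotypes and -0.39 to -0.23 without 1 array. FH15, the 1 call among microtubule and cytokinesis factors, was lost with the block and without replicate 2 of both genotypes (0 calls each), and without any 1 array (0 to 0). Their median ran from -0.14 to 0.00 without 1 array. DNA replication genes gained 1 call each after another quantile normalization, with the variance trend and robust estimation together and with array weights, where their median was -0.15, and without 1 array it ran from -0.29 to -0.15. No planned search of promoters or proteins was run.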
